A study of Mus musculus with 38 samples.

Results

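Heat shock chaperones hold other proteins in a soluble, foldable state and refold or hand over those that have lost their shape. The 10 chaperone genes described here were chosen by name, as the rows of the count table whose Ensembl identifier carried one of the 10 symbols in the GRCm39 annotation, out of 35682 genes in the table. They were Hspa1a, Hspa1b, Hspa8 and Hspa5 of the Hsp70 family, the Hsp110 gene Hsph1, the Hsp40 gene Dnajb1, the Hsp90 genes Hsp90aa1 and Hsp90ab1, the small heat shock gene Hspb1, and Hspe1, the lid of the mitochondrial chaperonin. All 10 were found, and all 10 passed the low-count filter in every fit, with 23 to 22232 counts per gene and library.

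The libraries came from hearts of male C57BL/6 mice, 8 to 12 weeks old by the methods of the study. Sham mice received vehicle (5% DMSO in saline) by mouth for 6 weeks and an open-chest operation without ischemia. Control-AMI mice (labelled Control_IR) received the same vehicle, 30 min of ligation of the left anterior descending artery and 2 h of reperfusion. EMPA–Pre-AMI mice (labelled EMPA_IR) received empagliflozin (EMPA), a sodium-glucose cotransporter-2 inhibitor, at 10 mg/kg/day for 6 weeks in that vehicle, and the same ischemia and reperfusion. Every library therefore carries vehicle, thoracotomy and collagenase digestion of the heart, and no group was left unoperated or received EMPA without ischemia. Each library pooled 2 hearts. Cardiomyocytes were collected by low-speed spin and were not sorted, whereas endothelial cells (ECs, CD45- CD31+) and fibroblasts (CD45- CD31- CD90+) were sorted. Sham, Control-AMI and EMPA–Pre-AMI gave 4, 5 and 4 libraries of cardiomyocytes, 4, 4 and 5 of ECs and 4, 4 and 4 of fibroblasts.

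Hsp70 proteins bind exposed hydrophobic stretches of a client and release them in a cycle driven by ATP. Hsp40 proteins deliver the client, Hsp110 proteins exchange the nucleotide, and Hsp90 takes over clients such as kinases and steroid receptors. Small heat shock proteins hold clients without ATP, and the endoplasmic reticulum (ER) has an Hsp70 of its own, BiP, made by Hspa5. Heat, ischemia and other proteotoxic stress release the transcription factor HSF1, which acts through heat shock elements in the promoters of many of these genes, whereas Hspa5 answers to the unfolded protein response through ER stress elements. Dissociation of a tissue into single cells is itself known to induce inducible Hsp70 and immediate early genes.

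The promoters are shown first because Hspa5 and the inducible Hsp70 pair differ there. The stretches below come from the GRCm39 genome, 5′ to 3′ on the coding strand. Capitals mark a match to a heat shock element or an ER stress element, and positions are counted back from the start of the canonical transcript. The element of 2 units was searched as GAANNTTC or TTCNNGAA, that of 3 units as GAA and TTC in alternation with NN between units, and the ER stress element as CCAAT and CCACG with 9 bases between them, each on both strands. Every match of 3 units holds matches of 2 units. Hspa1a and Hspa1b, the stress-inducible Hsp70 genes, lie side by side on chromosome 17 with starts 12918 bases apart. Their windows, chr17:35191133-35191382 and chr17:35178215-35178464 on the minus strand, hold 1 match each, at -104.
Hspa1a: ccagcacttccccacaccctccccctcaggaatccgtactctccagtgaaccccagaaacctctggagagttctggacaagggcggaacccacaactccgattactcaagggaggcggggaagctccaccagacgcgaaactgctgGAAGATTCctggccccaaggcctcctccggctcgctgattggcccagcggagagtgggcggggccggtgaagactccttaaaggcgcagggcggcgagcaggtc
Hspa1b: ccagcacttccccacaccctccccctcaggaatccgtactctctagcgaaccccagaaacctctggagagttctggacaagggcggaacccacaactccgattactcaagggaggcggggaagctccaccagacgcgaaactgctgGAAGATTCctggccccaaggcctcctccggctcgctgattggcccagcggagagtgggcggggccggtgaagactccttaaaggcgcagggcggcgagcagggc
The small heat shock gene Hspb1, on the plus strand at chr5:135916510-135916759, holds 2 matches, at -104 and -84.
Hspb1: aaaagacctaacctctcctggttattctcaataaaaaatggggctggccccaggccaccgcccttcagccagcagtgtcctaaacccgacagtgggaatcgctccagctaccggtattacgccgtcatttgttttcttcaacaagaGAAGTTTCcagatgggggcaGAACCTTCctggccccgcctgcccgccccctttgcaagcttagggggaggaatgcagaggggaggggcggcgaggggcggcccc
For Hspa5 (chr2:34662032-34662061, plus strand) and Hspe1 (chr1:55127212-55127241, plus strand) a stretch of 30 bases around the match is given. It holds the ER stress element of Hspa5 and, for Hspe1, 2 overlapping matches of 3 units, starting at -73 and -68.
Hspa5: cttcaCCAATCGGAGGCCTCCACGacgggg
Hspe1: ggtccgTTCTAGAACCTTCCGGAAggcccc

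The windows of Hspa1a and Hspa1b matched in 247 of 250 aligned bases. A heat shock element of 2 units was found in the 250 bases before the start of 5 of the 10 genes (Hspa1a, Hspa1b, Hsph1, Hspb1 and Hspe1), and in 12.25% of the 21510 promoters searched. That of 3 units was found in Hspe1 and in 0.349% of all promoters, and the ER stress element in Hspa5 and in 0.116%. A match describes letters in this window, and its absence says nothing of a factor. The windows of Hspa8, Hspa5, Hsp90ab1, Hsph1, Dnajb1 and Hspe1 also hold annotated exons, of the same gene or of another. They lie before the canonical start, but not before every annotated transcript.

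Depth was 2031716 to 4509284 counts per cardiomyocyte library, 1352514 to 2195308 per EC library and 1946056 to 2821373 per fibroblast library. Mitochondrially encoded genes took 46.6% to 66% of the cardiomyocyte counts, 4.52% to 14.6% of the EC counts and 3.47% to 12.5% of the fibroblast counts. The labelled cell types were checked by summed CPM (counts scaled to a common library size) of fixed markers, scaled within one population. The 9 cardiomyocyte markers summed to 18723 CPM or more in every cardiomyocyte library and to 1333 or less elsewhere. The 9 endothelial markers summed to 7356 or more in ECs and 1355 or less elsewhere. The 9 fibroblast markers summed to 17045 or more in fibroblasts and to 202 to 2007 in cardiomyocytes. As each population had its own scale, these sums do not give the share of one cell type in the libraries of another. In ECs those fibroblast markers summed to 844, 1658, 646 and 1064 CPM in Sham, to 8350, 2248, 2457 and 4660 in Control-AMI, and to 711, 1133, 615, 562 and 759 in EMPA–Pre-AMI. The Control-AMI EC libraries thus stood apart from their label by fibroblast RNA, above every other EC library. In bulk RNA, fewer cells of a type and less RNA per cell cannot be told apart. Replicates within a population were separate pools of hearts.

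The 3′ libraries count the stretch before the poly(A) tail of a transcript, which decides how well relatives are told apart. The last 500 bases of Hspa1a and Hspa1b were 52.3% identical, against 86.4% for the whole transcripts, and Hspa1a shared none of its 31-base words there with any other gene. Hspa5, Hsph1 and Dnajb1 also shared none, and Hspa1b, Hsp90aa1 and Hsp90ab1 shared 2.36%, 0.851% and 7.45%. Hspa8, Hspb1 and Hspe1 shared 85.3%, 60% and 68.5% with other genes, so reads that fit both may have been divided. The pseudogene sharing most with Hspa8 (Gm15459) had 0 counts in every library, and that of Hspb1 (Hsp25-ps1) 0 to 5.

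The first question is in which cells of the unischemic heart each chaperone is used. Across the Sham libraries the 3 populations were compared on one scale set over all 38 libraries by TMM factors, which hold the bulk of genes level. By edgeR, 7 of the 10 genes passed a false discovery rate (FDR) of 0.05 between Sham cardiomyocytes and Sham ECs, where 52.9% of the 12085 genes tested did. Of those 7, 5 were higher in cardiomyocytes (28.1% of all genes) and 2 were lower (24.8%). Between cardiomyocytes and fibroblasts 4 passed (47.3% of all genes), with 4 higher (24.5%) and 0 lower (22.7%) by edgeR, 0 lower by DESeq2 and 0 lower at an unadjusted p under 0.05. Between ECs and fibroblasts 5 passed (37.7%), with 3 higher in ECs (17.6%) and 2 lower (20.2%). The median log2 difference of the 10 genes was 0.58, 0.56 and 0.26 in the order given, against -0.04, -0.09 and -0.04 over all genes tested. The 3 comparisons share their Sham libraries, so these values are not independent of each other. The populations may also share hearts, which the tests did not take into account.

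The choice of scale bears on every comparison with cardiomyocytes, whose mitochondrial reads fill much of the library. With library totals in place of TMM factors, an alternative chosen after seeing the data, the median of all genes moved to -1.85 for cardiomyocytes against ECs and to -1.84 against fibroblasts, and to 0.02 for ECs against fibroblasts. On that scale 1 of the 10 chaperones was higher and 7 were lower in cardiomyocytes than in ECs, and 0 were higher and 5 lower against fibroblasts, so the direction of these counts rests on the scale. Between ECs and fibroblasts the counts stayed at 3 higher and 2 lower. Differences that involve cardiomyocytes are given on the TMM scale, and genes whose sign turned on library totals are named with them. The unsorted cardiomyocyte libraries also carried markers of other cells. On the TMM scale 8 of 9 fibroblast markers were higher in Sham cardiomyocytes than in ECs, and 7 of 9 endothelial markers higher than in fibroblasts, with 0 lower in both. On library totals 2 and 2 were higher and 0 and 1 lower. Their part in the chaperone values was not tested.

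Hspa1a and Hspa1b were highest in ECs. On the 38-library scale Hspa1a was at 150, 585, 275 and 447 CPM in Sham ECs, at 104, 101, 79.0 and 110 in Sham cardiomyocytes and at 52.5, 111, 46.1 and 69.7 in Sham fibroblasts. Hspa1b was at 126, 571, 306 and 411 CPM in Sham ECs, at 65.6, 42.1, 53.2 and 78.7 in cardiomyocytes and at 63, 118, 40.2 and 118 in fibroblasts. For both genes every Sham EC library lay above every library of the other populations, while cardiomyocytes and fibroblasts overlapped. Hspa1a was 5.21-fold higher in ECs than in fibroblasts (log2 difference 2.38 ± 0.60 SE, FDR = 0.00175), and Hspa1b 4.16-fold (2.06 ± 0.60, FDR = 0.00657). Cardiomyocytes were below ECs by -1.89 ± 0.59 log2 for Hspa1a (FDR = 0.00821) and by -2.56 ± 0.62 for Hspa1b (FDR = 0.000938), and on library totals these differences were larger still. Cardiomyocytes and fibroblasts were not told apart, at 0.49 ± 0.58 for Hspa1a and -0.50 ± 0.60 for Hspa1b, which became -1.25 (FDR = 0.0501) and -2.22 (FDR = 0.00156) on library totals. Of 13 immediate early genes, which tissue dissociation also raises, 6 were lower and 0 higher in cardiomyocytes than in ECs, 6 lower and 1 higher in cardiomyocytes than in fibroblasts, and 2 higher and 0 lower in ECs than in fibroblasts. On library totals 13 and 12 were lower in cardiomyocytes, and the last count was the same. Their part in the Hspa1a and Hspa1b levels was not tested.

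The sample labels carry tube numbers, which were read here as 4 ascending lists. What these lists stand for is not stated, and whether they mark a technical step is unknown. Of the Sham libraries, 3 of the 4 Sham EC libraries stood on list 2 while all Sham cardiomyocyte libraries stood on list 4. With a term for the list, the EC excess over fibroblasts was 1.43 for Hspa1a (FDR = 0.354) and 1.06 for Hspa1b (FDR = 0.482), and the cardiomyocyte deficit was -1.18 (FDR = 0.289) and -1.47 (FDR = 0.168). Sham ECs share no list with Sham cardiomyocytes, nor with Sham fibroblasts, which stood on lists 1 and 4. Among Sham libraries list and cell type therefore cannot be told apart in either pair, and the list term draws on the other groups.

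Hspb1, the small heat shock protein that guards actin filaments, stepped down from cardiomyocytes to ECs to fibroblasts. Sham cardiomyocytes had 1959, 2476, 2352 and 2431 CPM on the 38-library scale, ECs 846, 1061, 753 and 1423, and fibroblasts 704, 428, 280 and 229. No library of one population reached the next one up. Cardiomyocytes were 2.26-fold above ECs (1.17 ± 0.37, FDR = 0.00832) and 5.62-fold above fibroblasts (2.49 ± 0.39, FDR = 2.36e-06), and ECs were 2.49-fold above fibroblasts (1.32 ± 0.37, FDR = 0.00496). On library totals the step to ECs turned to -0.65 (FDR = 0.102), still 1.20 above the median of all genes, and that to fibroblasts stayed positive at 0.74 (FDR = 0.0649). With a list term the step from ECs to fibroblasts was 0.64 (FDR = 0.426).

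Hspe1, the co-chaperonin that closes the Hsp60 cage in the mitochondrial matrix, had the largest cardiomyocyte excess over ECs of the 10 genes. It was at 265.5, 267, 289 and 291 CPM in Sham cardiomyocytes on the 38-library scale, at 39.4, 38.4, 43.5 and 85.1 in ECs and at 65.8, 112, 62 and 90.0 in fibroblasts. Cardiomyocytes lay clear of both other populations, which overlapped each other. The excess was 5.41-fold over ECs (2.44 ± 0.23, FDR = 8.49e-12) and 3.37-fold over fibroblasts (1.75 ± 0.22, FDR = 1.69e-08). On library totals it stayed positive, at 0.61 (FDR = 0.0149) and 0.01 (FDR = 0.972), 2.46 and 1.85 above the median of all genes. ECs were below fibroblasts by -0.68 ± 0.22 (FDR = 0.0128), a call lost with a list term (-0.53, FDR = 0.297) and without EC Sham 1 (FDR = 0.0599), EC Sham 2 (FDR = 0.0634), EC Sham 3 (FDR = 0.0502) or fibroblast Sham 2 (FDR = 0.0910).

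Hspa5 showed a different order, low in ECs. It was at 479, 461, 342 and 529 CPM in Sham ECs on the 38-library scale, at 1066, 1447, 909 and 677 in fibroblasts and at 1270, 1342, 1087 and 1462 in cardiomyocytes. Every EC library lay below every library of the other populations. ECs were below fibroblasts by -1.18 ± 0.23 log2 (FDR = 4.47e-05), also on library totals (-1.11) and with a list term, where Hspa5 was the chaperone that kept its call in this comparison. Cardiomyocytes were 2.85-fold above ECs (1.51 ± 0.23, FDR = 5.64e-07) on the TMM scale, which turned to -0.30 (FDR = 0.233) on library totals, 1.55 above the median of all genes. Cardiomyocytes and fibroblasts overlapped and did not pass the test (0.33 ± 0.22, FDR = 0.226), and on library totals this value turned to -1.41.

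Hsp90ab1, the constitutive cytosolic Hsp90, had 6490, 7229, 6335 and 7471 CPM in Sham cardiomyocytes on the 38-library scale, 4289, 3285, 2397 and 4094 in ECs and 4106, 3814, 3282 and 1963 in fibroblasts. Cardiomyocytes lay above both, by 0.97 ± 0.33 (FDR = 0.0121) and 1.06 ± 0.33 (FDR = 0.00717) on the TMM scale, which turned to -0.85 and -0.69 on library totals, 1.00 and 1.15 above the median of all genes. With a list term both calls were lost, at 0.27 (FDR = 0.600) and 0.51 (FDR = 0.255), and the call against ECs was lost without EC Sham 3 (FDR = 0.0537). Hspa8, the constitutive Hsc70, was at 865, 799, 777 and 869 CPM in cardiomyocytes, 542, 509, 508 and 684 in ECs and 536, 580.5, 346 and 465 in fibroblasts. Its cardiomyocyte excess was 0.56 ± 0.21 (FDR = 0.0234) and 0.78 ± 0.21 (FDR = 0.00236), which turned to -1.26 and -0.96 on library totals, 0.59 and 0.87 above the median of all genes. The Hspa8 call against fibroblasts was lost with a list term (0.58, FDR = 0.0604). That against ECs was lost with at least 10 counts in every library (0.33, FDR = 0.154), and without cardiomyocyte Sham 1 (FDR = 0.0503) or 4 (FDR = 0.0508) and without EC Sham 2 (FDR = 0.0627) or 3 (FDR = 0.0649).

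The stress-inducible Hsp90aa1, the Hsp40 gene Dnajb1 and the Hsp110 gene Hsph1 passed no test between Sham populations. Their differences ran from 0.04 ± 0.54 for Hsph1 between ECs and fibroblasts to 0.63 ± 0.55 for Hsph1 between cardiomyocytes and fibroblasts, on the TMM scale. On library totals the cardiomyocyte values of all 3 turned negative against both other populations. Hsph1 rested on 1 library: without EC Sham 4, at 125 CPM on the 38-library scale, it was higher in cardiomyocytes than in ECs (1.46, FDR = 0.0276).

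**Figure D1:**
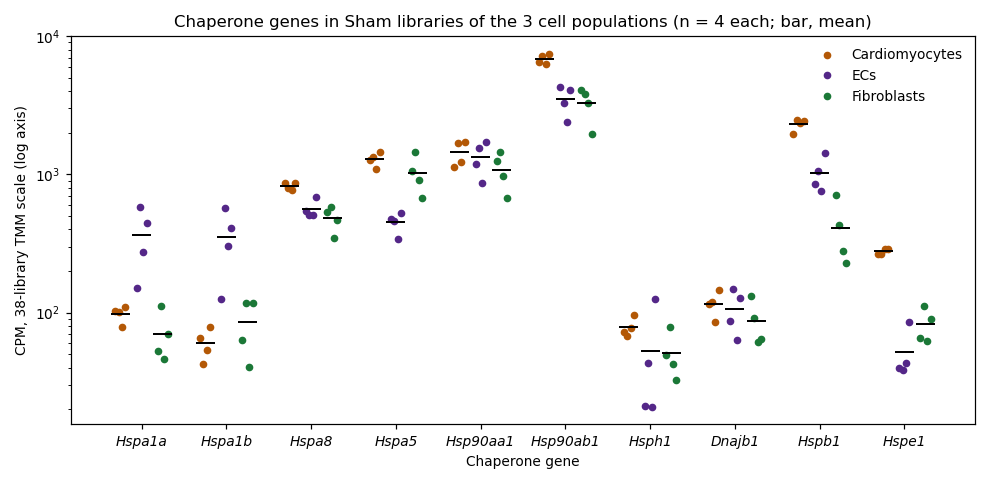
Chaperone genes in the Sham libraries of cardiomyocytes, ECs and fibroblasts (n = 4 each), in CPM on the scale of all 38 libraries, on a log axis, with a point per library and a bar at the mean. Hspa1a and Hspa1b lie highest in ECs, with EC means of 364 and 353 CPM, and Hspa5 lies lowest there, with a mean of 453 CPM. On library totals the cardiomyocyte position turns against ECs for Hspa8, Hspa5, Hsp90aa1, Hsp90ab1, Hsph1, Dnajb1 and Hspb1, and against fibroblasts for these except Hspb1 and also for Hspa1a.

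Other chaperones were counted by lists, given with the number called in each direction on the TMM scale. All 5 other small heat shock genes tested were higher in Sham cardiomyocytes than in ECs and than in fibroblasts, on both scales. Hspb6 was at 900 CPM in cardiomyocytes and 3.44 in ECs (8.01 ± 0.50, FDR = 8.90e-16), and Cryab, the lens and muscle protein αB-crystallin, at 1469 and 23.7 (5.95 ± 0.31, FDR = 3.49e-19). All 8 mitochondrial chaperones were higher in cardiomyocytes than in either other population, with medians of 1.80 and 1.64, and on library totals 2 and 1 were higher and 0 and 1 lower. Of 27 cytosolic Hsp70 and Hsp90 partners tested, 18 were higher and 3 lower in cardiomyocytes than in ECs, and 19 and 3 against fibroblasts, which became 2 and 14, and 2 and 17, on library totals. Of 8 subunits of the cytosolic chaperonin CCT, 5 and 3 were higher and 0 lower by edgeR, which became 0 higher and 7 lower in both on library totals. ER chaperones and unfolded protein response genes showed the order of Hspa5 between sorted cells: 12 of 17 were lower in ECs than in fibroblasts and 0 higher, and 9 were lower on library totals. P4hb, a protein disulfide isomerase, was at 74.4 CPM in Sham ECs and 172 in fibroblasts (-1.21 ± 0.18, FDR = 4.99e-07). Against fibroblasts 12 of these 17 were also lower in cardiomyocytes and 1 higher, and against ECs 4 were higher and 0 lower, which became 0 and 17 in both on library totals.

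The main comparison of the study asks what ischemia and reperfusion did to each population. Each population was fitted by itself here, so CPM values from this point are scaled within one population. In ECs 1 of the 10 chaperones passed the test in Control-AMI against Sham, where 6.56% of 10438 genes did. In fibroblasts 1 passed (4.16% of 10691 genes). In cardiomyocytes 0 passed by edgeR (0.0655% of 9167 genes) and 0 by DESeq2. There 1 of the 10 had an unadjusted p under 0.05, beside 249 of all 9167 genes. The gene that passed was Hspa5 in both ECs and fibroblasts. The median log2 change of the 10 genes was 0.20 in ECs, 0.33 in fibroblasts and 0.07 in cardiomyocytes, against -0.02, -0.03 and 0.01 over all genes tested. Values without overlap between Control-AMI and Sham were found for 2 of the 10 genes in ECs (11.3% of all genes), 1 in fibroblasts (12.3%) and 1 in cardiomyocytes (2.47%).

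Hspa5 (BiP, chr2:34661982-34668880, plus strand) binds nascent proteins in the ER and keeps the sensors of the unfolded protein response silent until misfolded proteins draw it away. In ECs it was at 773, 719, 544 and 845 CPM in Sham and at 1520, 1509, 1319 and 954 in Control-AMI. Every Control-AMI library lay above every Sham library. The mean rose from 720 ± 128 (SD, n = 4) to 1325 ± 265 (SD, n = 4), 1.84-fold (log2 0.88 ± 0.18 SE, FDR = 0.00484). The call held in all 13 fits that left out 1 library, with FDR from 0.00291 to 0.0269, and under all 10 other settings, including a term for the sample-sheet list (0.98, FDR = 0.0215).

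Fibroblast RNA moved in the same EC libraries. Of the 8 fibroblast markers tested in ECs, 7 were higher in Control-AMI than in Sham, and in Sham libraries Hspa5 was higher in fibroblasts than in ECs. The Control-AMI library with the most fibroblast marker RNA (8350 CPM) had 1520 CPM of Hspa5, and the one with the least (2248 CPM) had 1509. Those in between, at 2457 and 4660 CPM of fibroblast markers, had 1319 and 954 CPM of Hspa5. In EMPA–Pre-AMI ECs, whose fibroblast marker sums (562 to 1133 CPM) lay within or below the Sham range of 646 to 1658, Hspa5 was at 1259, 1138, 739, 971 and 1008 CPM. Other markers moved too. The 9 endothelial markers summed to 14127 to 15630 CPM in Sham ECs and to 7356 to 10029 in Control-AMI ECs, with 3 of 9 (Kdr, Fabp4 and Emcn) called lower, and 3 of 4 hemoglobin genes tested were called higher, with erythrocyte sums of 15.9 to 177 and 236 to 990.5 CPM. Control-AMI 3 had a leukocyte marker sum of 729 CPM, against 8.27 to 135 in the other EC libraries, and 14.6% mitochondrial counts. The Hspa5 call held without any single library, Control-AMI 3 among them. Every Control-AMI EC library had more fibroblast marker RNA and a lower endothelial sum than every Sham EC library. Leaving out a library therefore cannot separate the call from these differences. The part of these markers in the rise was not tested.

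**Figure D2:**
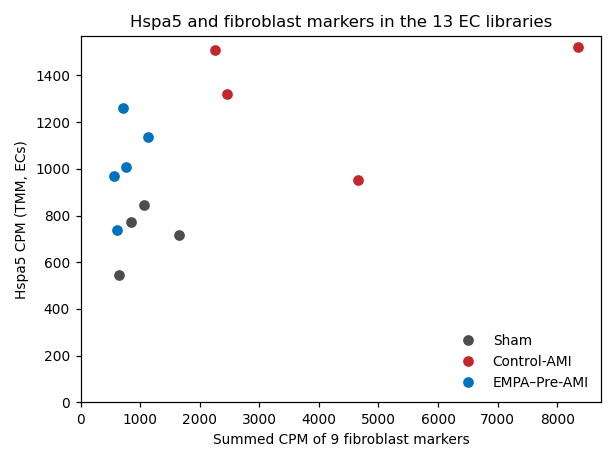
Hspa5 in CPM (vertical axis) against the summed CPM of 9 fibroblast markers (horizontal axis) in the 13 EC libraries, 1 point per library, colored by group, with both axes linear from 0. Control-AMI libraries lie at 2248 to 8350 CPM of fibroblast markers and 954 to 1520 CPM of Hspa5, and EMPA–Pre-AMI libraries at 562 to 1133 and 739 to 1259.

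In fibroblasts Hspa5 was at 1569, 2162, 1334 and 1002 CPM in Sham and at 2983, 3488, 3779 and 2243 in Control-AMI. The highest Sham library and the lowest Control-AMI library lay next to each other without crossing. The mean rose from 1517 ± 489 (SD, n = 4) to 3123 ± 673 (SD, n = 4), 2.06-fold (1.04 ± 0.24, FDR = 0.0212). This call was less firm: it was lost without Sham 3 (FDR = 0.0755), Sham 4 (FDR = 0.0682), Control-AMI 2 (FDR = 0.0637) or Control-AMI 3 (FDR = 0.0716), with log2 changes of 0.89 to 1.26 over the 12 fits. Groups and lists were uneven, with Control-AMI 1 to 3 and Sham 1 on list 4 and Control-AMI 4 and Sham 2 to 4 on list 1. Within list 1 the Control-AMI library at 2243 CPM lay above Sham libraries at 2162, 1334 and 1002, and within list 4 the Control-AMI libraries at 2983, 3488 and 3779 lay above the Sham library at 1569. With a list term the change was 0.90 (FDR = 0.0438). Sham 2 had a leukocyte marker sum of 563.5 CPM, against 9.22 to 36.8 in the other fibroblast libraries, and the call held without it.

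In cardiomyocytes Hspa5 was at 556, 595, 475 and 647 CPM in Sham and at 656, 703, 709, 445 and 472 in Control-AMI. The groups overlapped widely, and the difference was 0.07 ± 0.20 (FDR = 1.00). The test of the difference between populations, in 1 model of all libraries, gave 1.00 ± 0.31 for fibroblasts minus cardiomyocytes (FDR = 0.209), 0.85 ± 0.31 for ECs minus cardiomyocytes (FDR = 0.249) and -0.15 ± 0.32 for ECs minus fibroblasts (FDR = 0.938). None passed an FDR of 0.05, so the response of Hspa5 was not shown to differ between populations. By this test 0 of the 10 chaperones passed by edgeR and 0 by DESeq2 in each of the 3 pairs of populations, where 1.51% (ECs minus cardiomyocytes), 0.331% (fibroblasts minus cardiomyocytes) and 3.22% (ECs minus fibroblasts) of all genes did. At an unadjusted p under 0.05 there were 1, 2 and 0 of the 10, beside 1099, 1023 and 1544 of all 12085 genes.

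**Figure D3:**
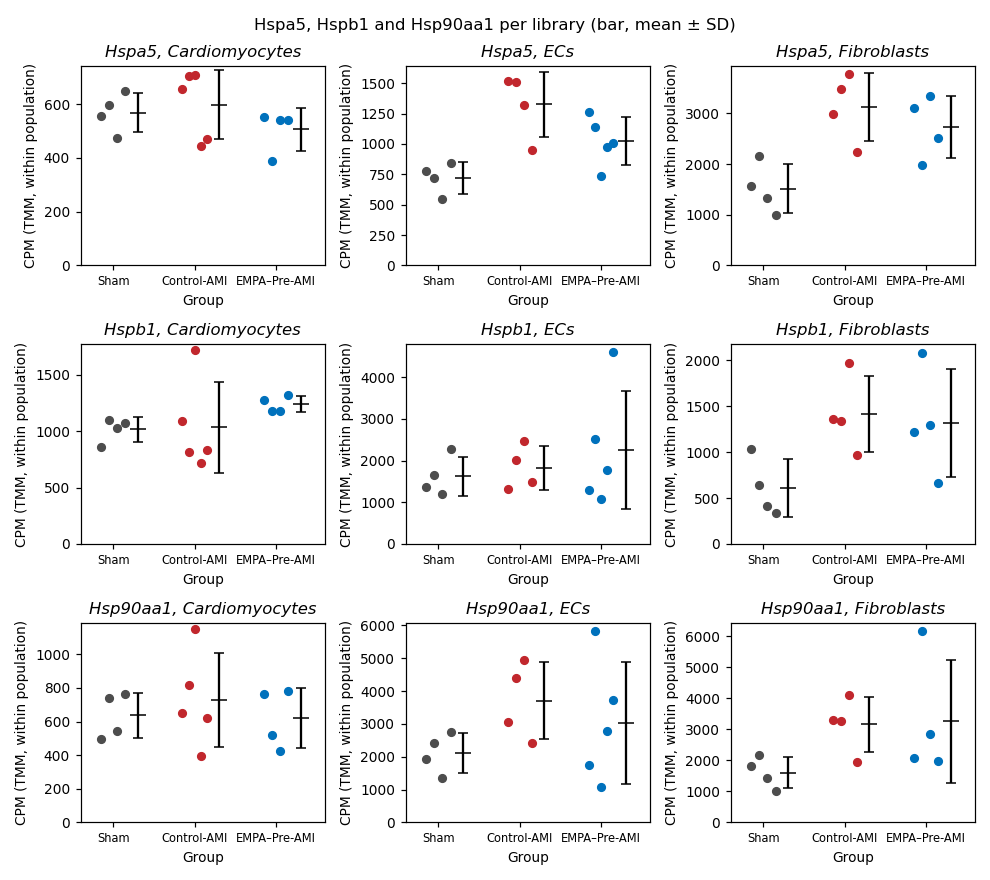
Hspa5, Hspb1 and Hsp90aa1 (rows) in cardiomyocytes, ECs and fibroblasts (columns), in CPM within each population, with 1 point per library and the mean ± SD of Sham, Control-AMI and EMPA–Pre-AMI beside them. Hspa5 of ECs and fibroblasts lies higher in every Control-AMI library than in every Sham library, and in cardiomyocytes the groups overlap.

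Few other genes of the ER list passed the test. In ECs 1 of 16 tested rose, and in fibroblasts 0 of 17 changed by edgeR, where 6.56% and 4.16% of all genes passed. The one was Calr (calreticulin, a calcium-binding ER chaperone), from 666 to 984 CPM in ECs (0.56 ± 0.17, FDR = 0.0444). Hsp90b1, the ER Hsp90 that partners BiP, had 614 and 791 CPM in Sham and Control-AMI ECs (0.36 ± 0.14, FDR = 0.146) and 1097 and 1118 in fibroblasts (0.03 ± 0.21, FDR = 0.960). Herpud1, a target of the unfolded protein response, had 112 and 73.5 CPM in fibroblasts (-0.60 ± 0.23, FDR = 0.155). The list medians were 0.17 in ECs and 0.05 in fibroblasts.

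Hsp90ab1 was the other chaperone whose EC groups did not overlap. It was at 6931, 5122, 3807 and 6542 CPM in Sham ECs and at 7274, 8486, 7736 and 9000 in Control-AMI. The difference, 0.54 ± 0.24, did not pass (FDR = 0.218). In fibroblasts, where Control-AMI 4 (4092 CPM) lay inside the Sham range of 2906 to 6042 and the others at 8041 to 8346, it was 0.56 ± 0.29 (FDR = 0.306). Hsp90aa1, the inducible Hsp90, was at 1832, 2159, 1424 and 1003 CPM in Sham fibroblasts and at 3298, 3274, 4121 and 1948 in Control-AMI, of which only the lowest fell inside the Sham range. That difference was 0.98 ± 0.36 (FDR = 0.148), and it passed without EMPA–Pre-AMI 2 (0.98, FDR = 0.0463). In ECs it was 0.81 ± 0.47 (FDR = 0.380) and in cardiomyocytes 0.19 ± 0.27 (FDR = 1.00).

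Hspb1 had the largest fibroblast difference of the 10 genes without passing the test. Sham fibroblasts had 1036, 640, 411 and 339 CPM, and Control-AMI fibroblasts had 1362, 1342, 1969 and 971. The lowest Control-AMI library lay just under the highest Sham library. The difference was 1.22 ± 0.38 (FDR = 0.0931), and DESeq2 called it (1.23, FDR = 0.0116), as did the fit without Sham 1 (1.61, FDR = 0.0195). In ECs (0.17 ± 0.42, FDR = 0.879) and cardiomyocytes (0.03 ± 0.23, FDR = 1.00) the groups overlapped. Fibroblasts minus cardiomyocytes gave 1.21 ± 0.51 for Hspb1 (FDR = 0.473).

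The inducible Hsp70 pair did not pass in any population after ischemia and reperfusion. In ECs Hspa1a was at 242, 911, 437 and 714 CPM in Sham and at 561, 1089, 795 and 266 in Control-AMI (0.23 ± 0.64, FDR = 0.891). Hspa1b was at 204, 890, 485 and 657 CPM and at 427, 946, 730 and 198 (0.04 ± 0.67, FDR = 0.985). Each group spanned a wide range that held most of the other, so changes of the size of these SEs, in either direction, were not detectable. In fibroblasts the differences were 0.27 ± 0.58 for Hspa1a and 0.03 ± 0.38 for Hspa1b, and in cardiomyocytes 0.35 ± 0.37 and 0.26 ± 0.60. Of 13 immediate early genes, 0 changed in any population by edgeR in the 3 treatment comparisons.

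The pair varied together rather than by group. In the 13 EC libraries the ratio of Hspa1a to Hspa1b CPM kept to 0.900 to 1.34 while each gene spanned 5.99-fold and 5.62-fold from the lowest to the highest library. The ratio spanned 0.409 to 1.51 in fibroblasts and 0.776 to 5.71 in cardiomyocytes, where levels were lower. The value of 5.71 was that of cardiomyocyte Control-AMI 3, with 12.5 CPM of Hspa1b, and the next highest was 2.39. EC libraries low in the pair (EC EMPA–Pre-AMI 1 and 3, at 182 and 232 CPM of Hspa1a) stood in the same group as EC EMPA–Pre-AMI 5, at 1038.

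**Figure D4:**
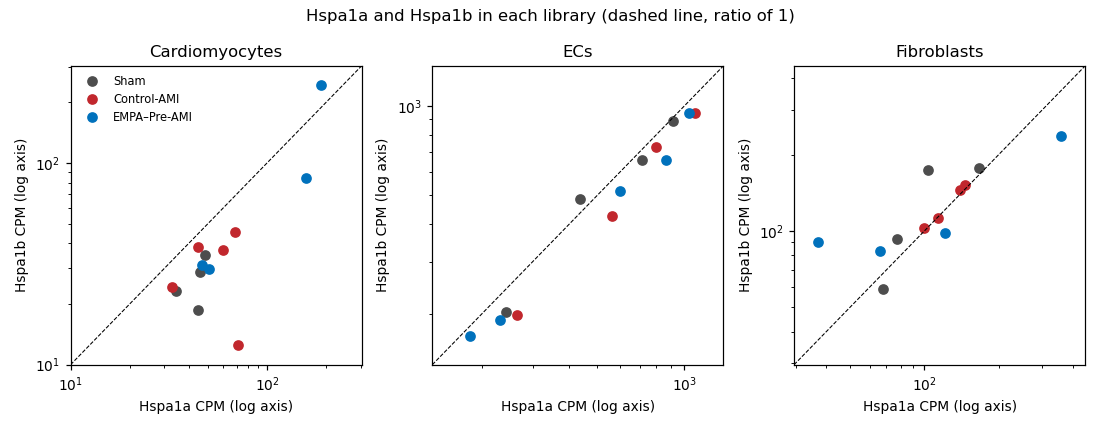
Hspa1a (horizontal axis) against Hspa1b (vertical axis) in CPM within each population, both on log axes, with 1 point per library colored by group and a dashed line at a ratio of 1. EC libraries (n = 13) follow a narrow band with ratios of 0.900 to 1.34, and cardiomyocyte libraries (n = 13) spread from 0.776 to 5.71. The highest is Control-AMI 3, at 12.5 CPM of Hspa1b, and the next is Sham 2, with a ratio of 2.39.

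The remaining chaperones gave smaller differences. Hspa8 differed by -0.05 ± 0.23 in ECs, 0.05 ± 0.20 in fibroblasts and -0.01 ± 0.17 in cardiomyocytes between Control-AMI and Sham. It had the narrowest range over cardiomyocyte libraries, 1.55-fold from lowest to highest. Dnajb1 differed by 0.36 ± 0.53, 0.39 ± 0.36 and 0.16 ± 0.30, and Hsph1 by -0.26 ± 0.78, -0.65 ± 0.43 and -0.47 ± 0.22, in the same order. Hsph1 in cardiomyocytes was the one member there with an unadjusted p under 0.05 (FDR = 1.00), and its Control-AMI libraries (17.3, 17.9, 32.8, 24.7 and 32 CPM) overlapped those of Sham (31.5, 30.1, 33.9 and 42.7 CPM). Among partners and small heat shock genes outside the 10, Bag3, the co-chaperone that links Hsp70 to small heat shock proteins, rose in fibroblasts from 73.9 to 133 CPM (0.84 ± 0.22, FDR = 0.0441), and Hspb8, which works with it, in ECs from 20.4 to 73.3 (1.86 ± 0.46, FDR = 0.0280). They were 1 of 26 partners in fibroblasts and 1 of 3 small heat shock genes in ECs, and 0 of 28 and 0 of 6 passed in cardiomyocytes by edgeR. Of all genes 4.16% passed in fibroblasts, 6.56% in ECs and 0.0655% in cardiomyocytes.

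The second comparison asks whether 6 weeks of EMPA before the infarct altered these responses. In EMPA–Pre-AMI against Control-AMI 0 of the 10 chaperones passed by edgeR in ECs (2.63% of all genes), in fibroblasts (0%) and in cardiomyocytes (0.0218%). DESeq2 called 0, 0 and 2, beside 343, 0 and 880 of all genes. At an unadjusted p under 0.05 there were 1, 0 and 3 of the 10. Of all genes these were 1274 of 10438 in ECs, 170 of 10691 in fibroblasts and 2295 of 9167 in cardiomyocytes. Groups did not overlap for 0 of the 10 in ECs (4.21%), 0 in fibroblasts (1.78%) and 1 in cardiomyocytes (5.97%). The median change of the 10 was -0.21, 0.02 and 0.24, against 0.02, 0.01 and -0.01 over all genes. This comparison and the one before it share the Control-AMI libraries, so each gene's values are given side by side and no relation between them was computed.

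In ECs the Hspa5 mean was 720 CPM in Sham, 1325 in Control-AMI and 1023 ± 195 (SD, n = 5) in EMPA–Pre-AMI. Of the 5 EMPA–Pre-AMI libraries 4 lay inside the Control-AMI range and 1, at 739 CPM, inside the Sham range. EMPA–Pre-AMI differed from Control-AMI by -0.37 ± 0.17 (FDR = 0.366) and from Sham by 0.51 ± 0.17 (FDR = 0.140), and neither passed. In fibroblasts EMPA–Pre-AMI libraries had 3103, 1982, 3333 and 2516 CPM, a difference of -0.19 ± 0.24 from Control-AMI (FDR = 1.00). In cardiomyocytes they had 553, 388, 542 and 542 CPM (-0.24 ± 0.20, FDR = 0.476).

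Cardiomyocyte Hspe1 was the chaperone with the clearest separation of EMPA–Pre-AMI from Control-AMI. It was at 116, 119, 127 and 129 CPM in Sham, at 114, 106, 103, 76.0 and 101 in Control-AMI and at 142, 186, 162 and 133 in EMPA–Pre-AMI. The 3 groups did not overlap, with Control-AMI lowest and EMPA–Pre-AMI highest. By edgeR EMPA–Pre-AMI was 0.64 ± 0.17 above Control-AMI (1.56-fold, FDR = 0.0571), which just missed the threshold. DESeq2, which called 880 genes where edgeR called 2, called it (0.66, FDR = 0.00546), as did a filter of at least 10 counts in every library (0.60, FDR = 0.0440). Control-AMI against Sham was -0.29 ± 0.17 (FDR = 1.00) and EMPA–Pre-AMI against Sham 0.34 ± 0.18 (FDR = 0.312). All Sham and Control-AMI cardiomyocyte libraries stood on sample-sheet list 4, whereas EMPA–Pre-AMI 1 to 4 stood on lists 3, 2, 3 and 4. With a list term, which leaves the single EMPA–Pre-AMI library of list 4 against the others, the Hspe1 difference from Control-AMI was 0.33 (FDR = 0.999). List and treatment can hardly be told apart here. In ECs and fibroblasts Hspe1 differed by -0.14 ± 0.25 and 0.04 ± 0.20, and ECs minus cardiomyocytes gave -0.74 ± 0.30 (FDR = 0.202).

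Hspa1a and Hspa1b in EMPA–Pre-AMI cardiomyocytes rested on 2 of 4 libraries. Hspa1a was at 45.3, 44.7, 34.5 and 48.6 CPM in Sham, at 59.6, 68.7, 71.3, 44.3 and 32.9 in Control-AMI and at 159, 188, 50.6 and 46.4 in EMPA–Pre-AMI. Hspa1b was at 28.7, 18.7, 23.3 and 34.8 CPM, at 37, 45.7, 12.5, 38.3 and 24.2, and at 83.9, 243, 29.7 and 31.3. EMPA–Pre-AMI 1 and 2 lay above every other cardiomyocyte library for both genes, and EMPA–Pre-AMI 3 and 4 lay inside the Control-AMI range. The differences from Control-AMI were 0.99 ± 0.36 for Hspa1a (FDR = 0.113) and 1.59 ± 0.59 for Hspa1b (FDR = 0.127). Without EMPA–Pre-AMI 4 both passed (1.24, FDR = 0.0161, and 1.88, FDR = 0.0404). That fit called 1498 genes in this comparison, where 2 of 9167 passed with all libraries. With a list term the differences were -0.25 and -0.01. In the same 4 libraries the endothelial markers summed to 879, 1355, 502 and 584 CPM, the 9 leukocyte markers to 97.8, 209, 39.6 and 29.2, and the erythrocyte markers to 441, 2656, 250 and 123. The endothelial sums of EMPA–Pre-AMI 1 and 2 lay within and above the Control-AMI range of 599 to 1201. Their part in the Hspa1a and Hspa1b values was not tested.

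The other members between EMPA–Pre-AMI and Control-AMI lay between -0.44 ± 0.31 (Hsp90ab1) and 0.26 ± 0.23 (Hspb1) in cardiomyocytes, between -0.40 ± 0.75 (Hsph1) and 0.30 ± 0.40 (Hspb1) in ECs, and between -0.19 ± 0.36 (Dnajb1) and 0.66 ± 0.44 (Hsph1) in fibroblasts. Changes of the size of these SEs were not detectable. One fibroblast library set much of the spread: EMPA–Pre-AMI 2 was the highest of its group for 9 of the 10 genes, with 6180 CPM of Hsp90aa1 (the others at 1964 to 2858), 359 of Hspa1a (37 to 121) and 2085 of Hspb1 (662 to 1300), and the lowest for Hspa5 (1982, the others at 2516 to 3333). The tests of whether the EMPA difference itself differed between populations called 0 of the 10 by edgeR and 0 by DESeq2. Of all genes 0.993% (ECs minus cardiomyocytes), 0.00827% (fibroblasts minus cardiomyocytes) and 2.04% (ECs minus fibroblasts) passed by edgeR. In that order 2, 0 and 0 of the 10 had an unadjusted p under 0.05, beside 1993, 1841 and 978 of all 12085 genes.

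Outside the 10 genes, Cryab fell in EMPA–Pre-AMI ECs against Control-AMI, from 40.6 to 19.8 CPM (-1.04 ± 0.25, FDR = 0.0207). It was 1 of 3 small heat shock genes tested there, where 2.63% of all genes passed. The difference of this EMPA value between ECs and cardiomyocytes also passed (-1.97 ± 0.35, FDR = 0.00394). That difference also holds the cardiomyocyte change, for which sample-sheet list and treatment can hardly be told apart. Cryab was 5.95 log2 units higher in Sham cardiomyocytes than in ECs, and the cardiomyocyte markers summed to 299 to 1133 CPM in Control-AMI ECs and 220 to 620 in EMPA–Pre-AMI ECs. Their part in the Cryab value was not tested. None of the 26 partners, 16 ER genes, 8 mitochondrial chaperones and 8 CCT subunits tested in ECs passed in this comparison by edgeR.

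EMPA–Pre-AMI against Sham combines the operation with the drug and shares libraries with both comparisons above. By edgeR 0 of the 10 passed in ECs (2.71% of all genes), 0 in fibroblasts (5.11%) and 0 in cardiomyocytes (0.338%). By DESeq2 0, 3 and 1 passed, beside 421, 858 and 201 of all genes. At an unadjusted p under 0.05 there were 1, 3 and 2 of the 10. Of all genes these were 1475 of 10438 in ECs, 2225 of 10691 in fibroblasts and 1672 of 9167 in cardiomyocytes. Groups did not overlap for 0 of the 10 in ECs (6.56%), 0 in fibroblasts (11.8%) and 2 in cardiomyocytes (7.88%), the latter Hspe1 and Hspb1. Fibroblast Hspa5 sat at the threshold (0.85 ± 0.24, 1.80-fold, FDR = 0.0503), and several small changes of method called it, with FDR from 0.0114 to 0.112 over the 10 other settings. Its EMPA–Pre-AMI libraries overlapped Sham in 1 library, EMPA–Pre-AMI 2 at 1982 CPM against Sham 2 at 2162. Fibroblast Hspb1 and Hsp90aa1 were 1.12 ± 0.38 (FDR = 0.110) and 1.03 ± 0.36 (FDR = 0.121) above Sham, and DESeq2 called both. Hspb1 in cardiomyocytes was at 1278, 1178, 1182 and 1324 CPM against 858, 1099, 1029 and 1076 in Sham (0.29 ± 0.24, FDR = 0.535).

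**Figure D5:**
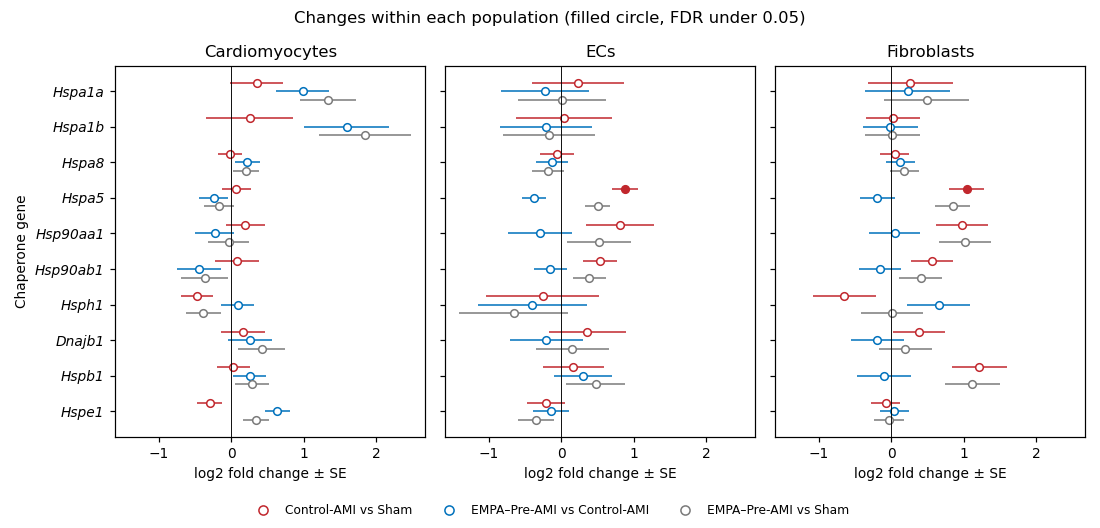
Log2 differences with SE for the 10 chaperones (rows) in cardiomyocytes, ECs and fibroblasts (panels), with 1 color per pair of groups (Control-AMI minus Sham, EMPA–Pre-AMI minus Control-AMI, and then EMPA–Pre-AMI minus Sham). Filled points passed an FDR of 0.05 by edgeR. The filled points are Hspa5 in ECs at 0.88 and in fibroblasts at 1.04, both in Control-AMI against Sham.

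In the comparison with Sham other chaperones passed beside the 10. Bag3 was higher in EMPA–Pre-AMI ECs than in Sham ECs, at 179 against 87.2 CPM (1.05 ± 0.23, FDR = 0.0163), and Cryab lower, at 19.8 against 37.6 (-0.93 ± 0.25, FDR = 0.0428). In fibroblasts the Hsp40 genes Dnajb4 (145 against 68.1 CPM, 1.09 ± 0.28, FDR = 0.0360) and Dnaja2 (167 against 106, 0.66 ± 0.18, FDR = 0.0400) were higher and Dnajb2 (34.8 against 57.6, -0.73 ± 0.20, FDR = 0.0434) was lower. In cardiomyocytes Herpud1 was higher, at 84.8 against 42.6 CPM (0.99 ± 0.21, FDR = 0.0431). They were 1 of 26 partners and 1 of 3 small heat shock genes in ECs, 3 of 26 partners in fibroblasts and 1 of 16 ER genes in cardiomyocytes. Of all genes 2.71% passed in ECs, 5.11% in fibroblasts and 0.338% in cardiomyocytes.

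Over all 9 groups, the genes whose pattern was most like that of each chaperone were looked up among the 12085 genes of the 38-library fit, by the root mean square difference of group means of log2 CPM, each centered on its own mean. The nearest to Hspa5 were Pdlim7 (0.15), Eprs1 (0.17) and Stk40 (0.21). The nearest to Hspe1 were Pebp1 (0.09), Fam162a (0.12) and Fundc2 (0.12), and to Hspb1 Asb4 (0.22), Enah (0.26) and Dnaja4 (0.28). For Hspa1a they were 2200002D01Rik (0.17), Hoxa3 (0.25) and Hoxa4 (0.27), and for Hspa1b Traf1 (0.22), Hoxa4 (0.27) and Plscr1 (0.28). Hspa8 had Nudc (0.08), Cops2 (0.10) and Camk2d (0.10), Hsp90aa1 had Eif5 (0.11), Mapk6 (0.16) and Csnk1a1 (0.16), and Hsp90ab1 had Dnajc8 (0.09), Eif5b (0.13) and Wbp11 (0.14). Hsph1 had Mtrr (0.19), Dapp1 (0.19) and Camk1 (0.20), and Dnajb1 had Gabarapl1 (0.11) and Naa40 (0.15). The 3 nearest genes of no chaperone included another of the 10. These are distances over 9 group means, which cell type dominates, and they carry no test.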

How the data were processed

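Libraries were QuantSeq 3′ FWD libraries of 38 samples. The submitters' processing notes name FastQC, cutadapt 2.8, Salmon, R 4.0.3, edgeR and the build GRCm39, and by the methods the libraries were pooled for sequencing. The authors deposited estimated counts per gene, not normalized, in 1 table. 4.55% of the values were not whole, and all were rounded. Every column was matched to a sample by its label. Of 35682 genes, 35407 were given a symbol, among them all 10 members, from a later GRCm39 release than that used for quantification.

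Each population was fitted by itself on 3 groups in R 4.3.3 with edgeR 4.0.16: filterByExpr (minimum count 10), TMM factors, and robust estimateDisp, glmQLFit and glmQLFTest. Sham populations, and differences of effect between populations, were tested in 1 fit of all 38 libraries in 9 groups. FDR is the Benjamini-Hochberg adjusted p over all genes tested, with a threshold of 0.05. SE is the log2 difference divided by the root of the F statistic. CPM used TMM library sizes, and log2 CPM a prior count of 2. The steps were tested on simulated data. Within a population, p-values measure the spread between libraries of separate pools of hearts. By the methods, cardiomyocytes and sorted cells came from the same digested hearts, so libraries of different populations may share hearts. The labels do not say which do, and the tests across populations took all libraries as independent.

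Named genes were the 10 members in every comparison, of the other chaperone and stress lists at most 5 called genes per direction and comparison, those with the largest change, and the 3 genes nearest in pattern to each member, some of which are not reported here. Hsp90b1 and uncalled Herpud1 were added for their role in the ER after their values were seen. Members and lists were chosen with earlier results of these data known, and the marker lists came from textbook knowledge. Promoters and ends of transcripts came from the GRCm39 genome and its annotation. As alternatives, DESeq2 1.42.0 and RLE factors were run, the filter was dropped or raised to 10 counts in each library, robust estimation was dropped, and fits were made on the pair of groups compared, with the replicate number as a block, with the sample-sheet list (runs of ascending tube numbers in the labels) as a term, and with each library left out in turn. Library totals without factors, and leaving out mitochondrially encoded genes, were added after seeing the data.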

Additional observations from a re-analysis of the deposited data

Results flagged for a closer look

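Of 90 groups of 4 or 5 libraries, 1 per gene and group, 9 held a library farther from the others than Dixon's test allows at the 95% level, where chance gives about 1 in 20. Values are CPM within one population.

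Fibroblast EMPA–Pre-AMI 2 stood above its group in 4 genes. Dnajb1 was at 261 CPM there against 93.8 to 121 in the others, Hspa1b at 237 against 83.0 to 98.0, Hsph1 at 149 against 48.1 to 55.9, and Hspe1 at 145 against 109 to 113. In fibroblast Control-AMI 4, Hsp90ab1 was at 4092 CPM against 8041 to 8346 in the others.

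In cardiomyocytes Dnajb1 was at 109.7 CPM in Control-AMI 3 against 40.4 to 47.8, and Hspa5 at 388 CPM in EMPA–Pre-AMI 2 against 542 to 553. In ECs Hspe1 was at 136 CPM in Sham 4 against 59.9 to 69.1, and Hsph1 at 138 CPM in EMPA–Pre-AMI 2 against 13 to 40.7.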

How the results depend on the processing

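The numbers of chaperones called were recomputed under 10 other settings within populations and 9 across them, and 158 of 171 stayed within 1.5 times the reported number. In EMPA–Pre-AMI against Control-AMI cardiomyocytes DESeq2 called 2 (Hspa1a and Hspe1) and at least 10 counts in every library 1 (Hspe1). Over all genes that comparison was unstable, with 2 called by edgeR, 880 by DESeq2, 372 on library totals, 338 without a filter, 284 under the stricter filter and 0 with a list term, and the cause was not tested. In EMPA–Pre-AMI against Sham cardiomyocytes DESeq2 called 1 (Hspa1a). In Control-AMI against Sham fibroblasts DESeq2 called 2, and in EMPA–Pre-AMI against Sham fibroblasts DESeq2 called 3 and RLE factors, no filter, or leaving out mitochondrially encoded genes 1 each. With a list term, 4, 2 and 1 were called between Sham cardiomyocytes and ECs, cardiomyocytes and fibroblasts, and ECs and fibroblasts, and the cause was not tested.

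Library totals keep the mitochondrial reads of cardiomyocytes in the scale. On them log2 differences of Sham cardiomyocytes from ECs turned to -1.26 for Hspa8, -0.30 for Hspa5, -1.70 for Hsp90aa1 and -0.85 for Hsp90ab1. Those of Hsph1, Dnajb1 and Hspb1 turned to -1.23, -1.68 and -0.65. Against fibroblasts the differences turned to -0.96 for Hspa8, -1.41 for Hspa5, -1.33 for Hsp90aa1, -0.69 for Hsp90ab1 and -1.31 for Dnajb1. Hspa1a and Hsph1 also turned negative against fibroblasts and passed on neither scale.

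Leaving out each library in turn gave 0 to 3 calls in EMPA–Pre-AMI against Control-AMI cardiomyocytes, 0 to 2 in EMPA–Pre-AMI against Sham cardiomyocytes (both highest without EMPA–Pre-AMI 4), 0 to 2 in Control-AMI against Sham fibroblasts (2 without Sham 1, adding Hspb1, or EMPA–Pre-AMI 2, adding Hsp90aa1), 0 to 1 in EMPA–Pre-AMI against Sham fibroblasts (Hspb1 without Sham 1, Hspa5 without Sham 2, Control-AMI 4 or EMPA–Pre-AMI 2), 5 to 8 between Sham cardiomyocytes and ECs, 4 to 4 between cardiomyocytes and fibroblasts and 4 to 5 between ECs and fibroblasts. Without cardiomyocyte EMPA–Pre-AMI 4, 1498 of all genes passed against Control-AMI and 943 against Sham. Leaving out a library changed no other count of called chaperones.

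The main fits did not take the replicate numbers to pair the samples, and the correlations below do not settle whether they do. Correlations over genes of same-numbered libraries ran from -0.11 to 0.48 in fibroblasts, -0.09 to 0.17 in cardiomyocytes and -0.06 to 0.21 in ECs. Of these, 6, 3 and 4 of 12 pairs were over 0.1, with medians of 0.099, 0.014 and 0.041. Differently numbered pairs had 9 of 36, 8 of 44 and 3 of 44 over 0.1, medians of -0.010, -0.025 and -0.008, and reached 0.41, 0.28 and 0.16. Across populations, 0 (cardiomyocytes and ECs), 1 (cardiomyocytes and fibroblasts) and 2 (ECs and fibroblasts) of 12 same-numbered pairs were over 0.1. Differently numbered pairs there had 5 of 44, 6 of 40 and 2 of 40. With a replicate block, 3 chaperones were called in Control-AMI against Sham fibroblasts and 3 in EMPA–Pre-AMI against Sham fibroblasts (Hspa5, Hsp90aa1 and Hspb1 in both), with Hsp90aa1 at 1.00 (FDR = 0.0196) and Hspb1 at 1.3 (FDR = 0.0174) in the former, and no other count of called chaperones changed.

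Counts over all genes moved by more than 1.5 times in other comparisons too. In Control-AMI against Sham cardiomyocytes 6 genes became 19 by DESeq2, 14 without a filter, 3 with the block and 20 with a list term or with the pair of groups alone. In EMPA–Pre-AMI against Sham cardiomyocytes 31 became 201 by DESeq2, 94 without a filter, 2 with a list term, 18 on library totals and 19 with the pair alone, and with the block or the pair alone 0 of the 2 were left against Control-AMI. In ECs 685 became 234 with a list term (Control-AMI against Sham), and 274 became 458 without a filter, 125 under the stricter filter, 149 with the block and 9 with a list term (EMPA–Pre-AMI against Control-AMI). In fibroblasts 445 became 772 by DESeq2 and 819 with a list term, and 546 became 858 and 985. Between Sham cardiomyocytes and ECs 6391 became 3066 under the stricter filter and 9879 on library totals, against fibroblasts 5714 became 2722 and 10061, and between ECs and fibroblasts 4558 became 1835, and 2558 with a list term. For the differences of effect between populations, the counts after ischemia and reperfusion ran from 44 to 272 for ECs minus cardiomyocytes (183 reported), from 12 to 88 for fibroblasts minus cardiomyocytes (40) and from 92 to 521 for ECs minus fibroblasts (389), and with EMPA from 19 to 403 (120), 0 to 165 (1) and 45 to 304 (247).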
